A study of Mus musculus with 26 samples.

Results

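The complement genes described here are 9 genes out of the 50104 gene identifiers that the tables of all cell types share: the C1q chain genes C1qa, C1qb and C1qc, the cleaved components C3, C4b and Cfb, the stabiliser Cfp, and the anaphylatoxin receptor genes C3ar1 and C5ar1. They were taken by gene name from the tables of monocytes and SPMs and by the same gene identifier from the table of lung macrophages. RNA was sequenced from cells FACS sorted from naïve female WT and ACKR2-/- mice, in 26 samples of 3 cell types: bone marrow monocytes (4 WT, 4 ACKR2-/-), small peritoneal macrophages (SPMs, 4 WT, 4 ACKR2-/-) and MHCII negative lung macrophages (5 WT, 5 ACKR2-/-). ACKR2 is an atypical chemokine receptor that takes up inflammatory CC chemokines without signalling through G proteins. WT mice were C57BL/6J bought from a supplier, whereas ACKR2-/- mice came from a homozygous colony of their own, so that genotype and colony cannot be told apart. Cells of 5 mice were pooled into each monocyte and SPM sample, and the number of mice behind a lung sample is not given. Mice were in general aged 8 to 10 weeks, with no age stated for these samples in particular. The sorts took CD45+ cells that were, among other markers, Ly6G- SiglecF- F4/80- CD11b+ Ly6C+ (monocytes), CD11b+ F4/80 mid MHCII+ (SPMs) or SiglecF- Ly6C- CD11b+ F4/80+ MHCII- (lung). With sorted pools, fewer cells of a type and less RNA per cell cannot be told apart.

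Complement is a cascade of proteins that tags microbes and dying cells and calls in phagocytes. C1q, built from A, B and C chains, recognises the surface and starts the classical pathway, C4 and factor B feed the convertases that cleave C3, and properdin (Cfp) stabilises the convertase of the alternative pathway. The small fragments of C3 and C5 act on myeloid cells through the receptors C3aR1 and C5aR1. The liver makes most of the circulating components, but macrophages are a main source of C1q, and myeloid cells are a known source of properdin.

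The C1q genes lie side by side on the minus strand of chromosome 4 (GRCm38), C1qb at 136880129 to 136886187, C1qc at 136889804 to 136893065 and C1qa at 136895917 to 136898803, within 18.7 kb. C3 (57203970 to 57228136), C4b (34728380 to 34743882) and Cfb (34856374 to 34862518) are on chromosome 17, Cfp (20925454 to 20931555) on chromosome X, C3ar1 (122847138 to 122856161) on chromosome 6 and C5ar1 (16246743 to 16259540) on chromosome 7, all on the minus strand. Cfb overlaps the protein coding gene Gm20547 on the same strand, which is listed at 0 reads in all 26 libraries, so reads that fall in both genes may have been dropped from Cfb. C4b has a near-identical neighbour, C4a, and reads shared by both may be missing from C4b; C4a itself stayed at or under 1.91 CPM in every library.

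C1qb, C1qc and C3ar1 had the most alike patterns of the members with an entry among RefSeq promoters, so the bases before their starts are shown. Each is read 5′ to 3′ on the gene's strand (GRCm38.p6) and ends where the gene begins in RefSeq or in the deposited tables, whichever lies further upstream. Capitals mark a match to GAGGAA (the core of sites of the PU.1 kind) or to TGCTGA (a MAF half-site), or to the reverse complement of either.
C1qb, chr4:136886201-136886450: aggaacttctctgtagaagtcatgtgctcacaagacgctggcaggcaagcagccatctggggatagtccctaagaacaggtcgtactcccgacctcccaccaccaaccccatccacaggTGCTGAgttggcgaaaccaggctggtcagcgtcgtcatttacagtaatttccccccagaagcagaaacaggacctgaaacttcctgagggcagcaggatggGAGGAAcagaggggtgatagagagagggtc
C1qc, chr4:136893066-136893164: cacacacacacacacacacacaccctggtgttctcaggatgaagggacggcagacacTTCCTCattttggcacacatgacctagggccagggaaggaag
C3ar1, chr6:122856162-122856407: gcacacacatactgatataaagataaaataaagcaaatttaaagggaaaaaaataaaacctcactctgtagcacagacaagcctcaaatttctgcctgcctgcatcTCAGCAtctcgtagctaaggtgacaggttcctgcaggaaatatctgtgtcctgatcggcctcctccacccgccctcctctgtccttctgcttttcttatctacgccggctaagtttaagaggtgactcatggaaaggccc
The C1qb window held 1 match to each motif, the 99 bases of C1qc held 1 match to GAGGAA, and the 246 bases of C3ar1 held 1 match to TGCTGA. Of 32851 RefSeq promoter windows of 250 bases, 23.3% held GAGGAA and 16.1% held TGCTGA on either strand, and of windows of 99 bases 9.9% held GAGGAA. No match overlapped another, and the matches are a description of these letters, not of binding. RefSeq promoter entries matched 6 of the 9 genes, and C1qa, C4b and Cfb had none. Of the members not shown, C3 held 1 match to TGCTGA and 0 to GAGGAA in 250 bases. Cfp (250 bases) and C5ar1 (48 bases) held 0 matches to either.

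Counts on genes summed to between 15450670 and 19218213 in the monocyte samples, 12781144 and 35400034 in the SPM samples and 19950019 and 29770252 in the lung samples. Ackr2, the deleted gene, read 0 in all 8 ACKR2-/- monocyte and SPM libraries, at most 0.616 CPM in the WT ones, 0.282 to 1.64 CPM in ACKR2-/- lung libraries and 7.75 to 22.1 CPM in 4 of the 5 WT lung libraries, the library labelled WT lung replicate 5 being at 0, against its label. A few libraries stood apart from the rest of their group. WT lung replicate 3 carried 96742 CPM over 5 MHC class II genes against 3746 to 9380.2 CPM in the other 9 lung libraries, although the sort was MHCII negative. It also led them in the sum of dendritic cell genes (590.1 CPM, most of it Cd209a, against 9.38 to 48.4). ACKR2-/- SPM replicates 1 and 4 carried 214 and 319.6 CPM over 6 alveolar macrophage markers, nearly all of it Marco, against 14.6 to 42.0 CPM in the other 6 SPM libraries. They also carried 912 and 1029.9 CPM over 5 large peritoneal macrophage markers, most of it Icam2, against 145 to 536 CPM in the others. WT SPM replicate 1 was highest of the SPM libraries in the sum of 6 monocyte markers (5412 CPM against 1499.8 to 2063), most of it Fn1 and Ccr2, but lowest of them in Ly6c2 (16.8 CPM against 23.9 to 707). The main results that rest on WT lung replicate 3 or on ACKR2-/- SPM replicates 1 and 4 are given with and without them.

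Which complement genes each cell type used was described first in WT cells, by levels per gene length (RPKM, reads per kilobase of gene and library size, with library sizes scaled over all 26 samples). SPMs were the C1q and properdin cells. C1qb reached 14897 ± 2195 RPKM (SD, n = 4) in WT SPMs, Cfp 5059 ± 2025, C1qc 3485 ± 748 and C1qa 2243 ± 779, ahead of C5ar1 (73.7 ± 30.7), C3ar1 (34.5 ± 5.69) and C4b (18.3 ± 7.90), with C3 (2.48 ± 1.23) and Cfb (0.22 ± 0.17) last. The ranges of Cfp, C1qc and C1qa overlapped between neighbours in that order, as did those of C5ar1, C3ar1 and C4b, whereas the C1qb libraries lay above all others. The 3 C1q genes together took 1.07% to 1.73% of all counts on genes in the 8 SPM libraries. In WT monocytes the order was led by Cfp (230 ± 18.5 RPKM) and C3 (59.9 ± 3.65), then C5ar1 (13.3 ± 2.79), and the C1q genes lay between 0.841 and 2.54 RPKM on average. WT lung macrophages had C1qb at a median of 318 RPKM (lowest 193, highest 3478), C1qa at 231 (122 to 1970.0) and C1qc at 166 (93.2 to 1419), followed by C5ar1 at 110.0 (64.5 to 146), Cfp at 65.6 (35.3 to 175), C3 at 16.6 (8.58 to 19.0), C3ar1 at 13.3 (6.60 to 82.1), C4b at 2.07 (1.11 to 4.50) and Cfb at 0.0406 (0 to 0.138). In monocytes the ranges of Cfp, C3 and C5ar1 did not overlap each other, and in lung macrophages neighbours in the order overlapped except Cfp and C3, C3ar1 and C4b, and C4b and Cfb. The highest lung value of each C1q gene, of Cfp, of C3ar1 and of C5ar1 was that of WT replicate 3.

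**Figure D1:**
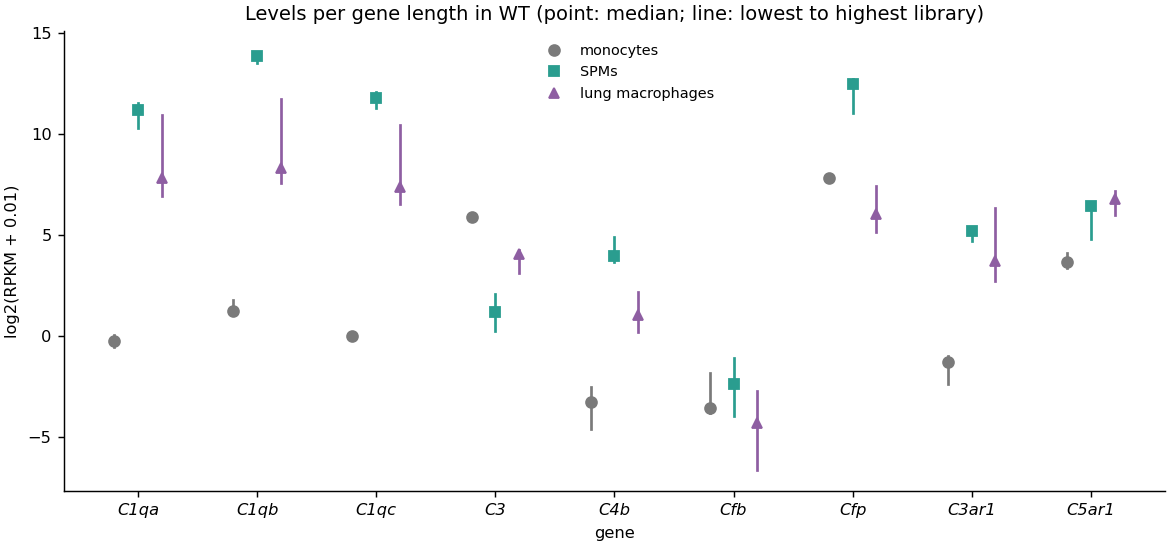
Levels per gene length of the 9 complement genes in WT monocytes, SPMs and lung macrophages, as log2(RPKM + 0.01) on the vertical axis, with a point for the group median and a line from the lowest to the highest library (n = 4, 4 and 5). The median of SPMs lies highest for C1qa, C1qb, C1qc, C4b, Cfb, Cfp and C3ar1, that of monocytes for C3, and that of lung macrophages for C5ar1, and the ranges of SPMs and lung macrophages overlap for C1qa, C3ar1, C5ar1 and Cfb.

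The WT cell types were then compared in a single edgeR quasi-likelihood fit of all 26 samples, where a call needed an adjusted p (Benjamini-Hochberg) under 0.05 together with a log2 fold change beyond 0.5 in either direction. Of the 17792 genes tested, 41.9% were called between WT SPMs and WT monocytes, 63.8% between WT lung macrophages and WT monocytes and 62.3% between WT lung macrophages and WT SPMs, so that a call is common here. Each cell type came in its own table, and the lung table had the summary lines of another counting tool, so cell type and table cannot be told apart. Against monocytes, SPMs had 7 members called higher and 1 lower, lung macrophages 6 higher and 2 lower. Against SPMs, lung macrophages had 1 member called higher and 5 lower. The median log2 difference over the 9 genes was 6.55, 4.87 and -2.02 in these comparisons, beside 0.00, 0.34 and 0.41 over all genes tested.

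Against monocytes, the C1q genes gave the widest differences of the members. C1qb was higher in SPMs than in monocytes by 12.52 on the log2 scale (SE 0.99, adjusted p = 1.98e-10, edgeR), C1qc by 11.79 (SE 0.94) and C1qa by 11.37 (SE 1.01). Lung macrophages lay between them: C1qb was higher than in monocytes by 8.54 (SE 0.85) and lower than in SPMs, at -3.98 (SE 0.63, adjusted p = 5.89e-06, edgeR). The difference of C1qb from monocytes was 6.92 without WT lung replicate 3. Without WT lung replicate 3 the differences from SPMs were -5.59 for C1qb, -4.58 for C1qc and -3.51 for C1qa, against -3.12 for C1qc and -2.02 for C1qa with it, and leaving out the library labelled WT lung replicate 5 as well gave -5.60, -4.65 and -3.59.

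Among the cleaved components, C3, the central component, ran the other way. C3 was lower than in monocytes in SPMs, at -4.58 (SE 0.68, adjusted p = 4.63e-06, edgeR), and in lung macrophages, at -2.10 (SE 0.56, adjusted p = 0.00197, edgeR), and it was higher in lung macrophages than in SPMs by 2.48 (SE 0.60). The WT lung libraries carried 82.4 to 885 CPM of fibroblast markers, against 0.192 to 0.981 CPM in WT SPMs. The part of such cells in the lung level of C3 was not tested. C4b, the C4 gene, was higher than in monocytes by 7.60 (SE 0.76) in SPMs and by 4.87 (SE 0.68) in lung macrophages, and lower in lung macrophages than in SPMs, at -2.73 (SE 0.53). Cfb, which encodes factor B, was not called in any of these comparisons, and its interval of 2 SE for SPMs against monocytes ran from -1.19 to 3.02.

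Cfp had the sharpest contrast between the macrophage types. It was higher in SPMs than in monocytes by 4.46 (SE 0.44) and lower in lung macrophages than in monocytes, at -1.56 (SE 0.36), so that lung macrophages and SPMs differed by -6.02 (SE 0.42, adjusted p = 1.41e-11, edgeR). Without WT lung replicate 3 the lung values of Cfp were -2.10 against monocytes and -6.55 against SPMs. C3ar1, the receptor of C3a, was higher than in monocytes by 6.55 (SE 0.77) in SPMs and 6.08 (SE 0.75) in lung macrophages. C5ar1, the receptor of C5a, was higher by 2.47 (SE 0.33) and 3.01 (SE 0.33). Without WT lung replicate 3 the lung differences from monocytes were 4.85 for C3ar1 and 2.87 for C5ar1. Between lung macrophages and SPMs neither receptor was called. The intervals of 2 SE were -1.59 to 0.65 for C3ar1 and -0.06 to 1.12 for C5ar1, and without WT lung replicate 3 C3ar1 was called lower in lung macrophages (-1.70, adjusted p = 0.00125, edgeR).

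The proportions of the C1q chains differed between the tables. In reads per gene length within a library, C1qa stood at 0.0836 to 0.219 of C1qb in the 8 SPM libraries and at 0.566 to 0.764 in the 10 lung libraries, and the ranges did not overlap. C1qc stood at 0.210 to 0.295 of C1qb in SPMs and at 0.384 to 0.521 in lung macrophages. WT lung replicate 3, the highest lung library in each C1q gene, had a ratio of C1qa to C1qb of 0.566, the lowest of the lung libraries, the other 9 of which ran from 0.580 to 0.764. In monocytes, where C1qa had only 5 to 37 reads per library, the ratio of C1qa to C1qb ran from 0.154 to 1.05. These ratios were looked at after the values were seen and were not tested, and cell type and table cannot be told apart.

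**Figure D2:**
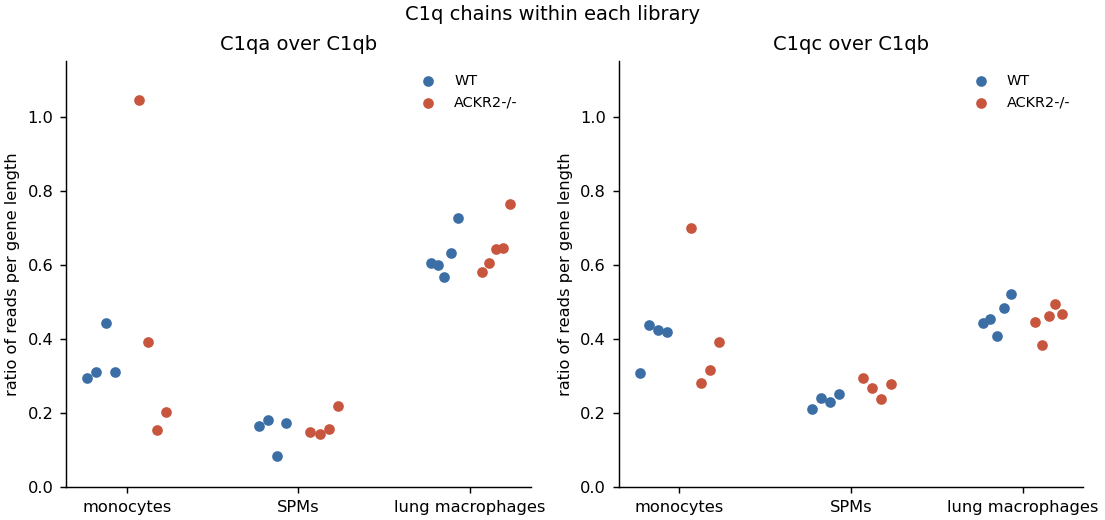
Ratio of C1qa to C1qb (left) and of C1qc to C1qb (right), in reads per gene length, in every library of WT (blue) and ACKR2-/- (red) monocytes, SPMs and lung macrophages. SPM libraries lie at 0.0836 to 0.219 for C1qa over C1qb and lung libraries at 0.566 to 0.764, in both genotypes.

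The question of the design is whether loss of ACKR2 changes these genes, and it was asked within each cell type. Values per sample are CPM (counts relative to the library size, scaled within the cell type), in the order of the replicate numbers. In monocytes, 7 of the 9 genes passed the filter on low counts and 1, C5ar1, was called, lower in ACKR2-/-. Of the 13246 genes tested, 1.27% were called (168 genes), and 2251 (17%) had an unadjusted p under 0.05 (edgeR). How many of all genes had genotypes that did not overlap was not counted. C4b and Cfb were left out by the filter. The median log2 fold change of the 7 genes was -0.56, beside 0.00 over all genes tested.

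C5ar1 read 41.3, 55.6, 34.3 and 43.0 CPM in WT monocytes and 29.5, 23.9, 17.0 and 19.0 CPM in ACKR2-/- monocytes. The genotypes did not overlap. The mean was 43.5 ± 8.88 (SD, n = 4) in WT and 22.3 ± 5.60 in ACKR2-/-, a log2 fold change of -0.96 (SE 0.19, adjusted p = 0.0352, edgeR). The call was lost when any of WT replicates 1, 2 and 4 or ACKR2-/- replicates 2 and 4 was left out, with adjusted p from 0.0540 to 0.119, and in the fit of all cell types together (adjusted p = 0.301, edgeR), while the log2 fold change stayed between -1.13 and -0.82 over all alternatives run. Markers of other cells were also summed: 6 neutrophil genes (S100a8, S100a9, Retnlg, Ly6g, Camp and Ltf, none at 0 in any library) came to 34237, 65428, 30692 and 50535 CPM in WT and 42185, 45511, 9539 and 15889 CPM in ACKR2-/-. The sort had left out Ly6G+ cells. The ranges of this neutrophil sum overlapped between the genotypes. A T cell list of 7 genes summed to 2.50 to 4.10 CPM in WT and 49.6 to 92.9 CPM in ACKR2-/-. The part of either list in the C5ar1 difference was not tested.

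The C1q genes were low in monocytes. C1qb, on 235 reads over the WT and 121 over the ACKR2-/- libraries, read 4.88, 3.36, 2.89 and 3.02 CPM in WT and 1.99, 1.37, 1.79 and 1.38 CPM in ACKR2-/-. Its genotypes did not overlap, but it was not called (log2 fold change -1.11, SE 0.27, adjusted p = 0.0785, edgeR), whereas DESeq2 called it at an adjusted p of 0.0130. C1qc read 2.67, 2.61, 2.17 and 2.24 CPM in WT and 2.47, 0.683, 1.00 and 0.956 CPM in ACKR2-/-, so that only replicate 1 of ACKR2-/- lay in the WT range. Its log2 fold change was -0.92 (SE 0.38, adjusted p = 0.257, edgeR), and without that library it was called (-1.45, adjusted p = 0.0471, edgeR). C1qa, at 0.895 to 1.37 CPM in WT, read 1.99 CPM in the same ACKR2-/- library and 0.263 to 0.512 CPM in the other 3 (adjusted p = 0.657, edgeR).

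C3 and Cfp, the most abundant members in monocytes, were not called. C3 read 424, 410.0, 375 and 369 CPM in WT and 263, 311, 359.9 and 310.0 CPM in ACKR2-/-. All ACKR2-/- libraries lay below all WT libraries, with a log2 fold change of -0.34 (SE 0.13, adjusted p = 0.211, edgeR). Cfp read 476, 511, 567 and 491 CPM in WT and 371, 425, 646 and 614 CPM in ACKR2-/-, so that ACKR2-/- libraries lay on both sides of the WT range (log2 fold change 0.01, interval of 2 SE -0.36 to 0.37). C3ar1, at 0.854 to 2.74 CPM over the 8 libraries, was not called (-0.44, SE 0.40). C4b had 45 reads over the WT and 16 over the ACKR2-/- libraries, and Cfb 28 and 14, with an exact two-sided permutation p of 0.114 and 0.286 (n = 4 against 4, smallest possible p 0.0286).

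In SPMs, all 9 genes were tested and 0 were called, where 0.0462% of the 12997 genes tested were called (6 genes, and 709 at an unadjusted p under 0.05, edgeR). The median log2 fold change of the 9 genes was 0.07, beside -0.05 over all genes tested. The ranges of the C1q genes overlapped between the genotypes. C1qb read 8059.9, 9226, 9391 and 10077 CPM in WT and 9467, 8097, 5581 and 9694 CPM in ACKR2-/-. For C1qb the interval of 2 SE for the log2 fold change was -0.65 to 0.32, with -0.64 to 0.66 for C1qa and -0.47 to 0.61 for C1qc. C4b, at 40.6 to 104 CPM in WT and 33.4 to 84.9 CPM in ACKR2-/-, gave -0.80 to 0.63.

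C3 and Cfb were higher in 2 of the 4 ACKR2-/- SPM libraries. C3 read 13.2, 6.97, 3.43 and 5.99 CPM in WT and 61.6, 5.28, 3.09 and 83.1 CPM in ACKR2-/-. Cfb read 0.0958, 0.310, 0.264 and 0.702 CPM in WT and 3.87, 0.477, 0.258 and 8.03 CPM in ACKR2-/-. Replicates 1 and 4 of ACKR2-/- lay above every other SPM library, and replicates 2 and 3 within or next to the WT range. The log2 fold changes were 2.36 (SE 0.90) for C3 and 3.12 (SE 1.02) for Cfb, neither called (adjusted p = 0.788 for both, edgeR), and without both libraries C3 gave -0.83 and Cfb 0.035. C3ar1 was also highest in these libraries, at 129.7 and 198 CPM against 66.6 to 93.5 CPM in the other 6, as was C5ar1, at 173 and 172 CPM against 44.9 to 131 CPM. These are the libraries that stood apart in Marco (206 and 311 CPM against 5.85 to 31.6) and Icam2 (764 and 811 CPM against 97.6 to 338). The monocyte gene Ly6c2 was also highest in them (380.3 and 707 CPM against 16.8 to 56.6), while mesothelial (0.498 and 0.323 CPM) and fibroblast markers (0.766 and 0.0269 CPM) were near 0 in them. The part of other cells in the 2 libraries was not tested.

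Cfp, the second most abundant member in SPMs, read 2276, 5465, 5658 and 6281 CPM in WT and 3583, 6134, 4906 and 2885 CPM in ACKR2-/-. The lowest library was WT replicate 1, followed by ACKR2-/- replicates 4 and 1, and the interval of 2 SE for the log2 fold change was -0.87 to 0.53. WT replicate 1 was also lowest in C5ar1, at 44.9 CPM against 123 to 131 CPM in the other WT libraries.

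In lung macrophages, 8 of the 9 genes passed the filter and 0 were called, where 0% of the 16824 genes tested were called by edgeR (499 at an unadjusted p under 0.05, and 15 genes by DESeq2). The median log2 fold change of the 8 genes was -1.61 with WT replicate 3 included, beside -0.04 over all genes tested. Without that library the 8 values ran from -1.07 (C3ar1) to 0.01 (C4b), and their median was not computed. C1qa read 351, 213, 2749, 174 and 299.7 CPM in WT and 109, 199.999, 245, 96.2 and 65.0 CPM in ACKR2-/-. C1qb read 607, 371, 5076, 288 and 431 CPM in WT and 196, 346, 399.6, 156 and 88.9 CPM in ACKR2-/-. C1qc read 478, 298, 3675, 246 and 399 CPM in WT and 155, 236, 327, 136 and 73.8 CPM in ACKR2-/-. For each chain the highest library was WT replicate 3 and the 3 lowest were ACKR2-/- replicates 1, 4 and 5, with overlap between the others.

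C3ar1 followed the C1q genes. It read 69.4, 47.7, 474, 38.9 and 75.6 CPM in WT and 26.1, 25.6, 53.5, 24.9 and 6.65 CPM in ACKR2-/-, with ACKR2-/- replicate 3 the only library of its genotype within the WT range. The log2 fold changes were -2.40 (SE 0.79) for C1qa, -2.51 (SE 0.83) for C1qb, -2.46 (SE 0.78) for C1qc and -2.37 (SE 0.75) for C3ar1, each with an adjusted p of 1.00 (edgeR). Without WT replicate 3 they were -0.85, -0.82, -0.92 and -1.07, and without it and the library labelled WT replicate 5 they were -0.75, -0.80, -0.85 and -0.89, again not called. WT replicate 3 is the library that was high in MHC class II genes and in the dendritic cell sum, most of it Cd209a (534 CPM against 0.907 to 22.2). It was also highest in 5 B cell markers (1949 CPM against 125 to 670.4) and in 5 interstitial macrophage markers (649 CPM against 121 to 337), and the part of other cells in its C1q level was not tested.

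**Figure D3:**
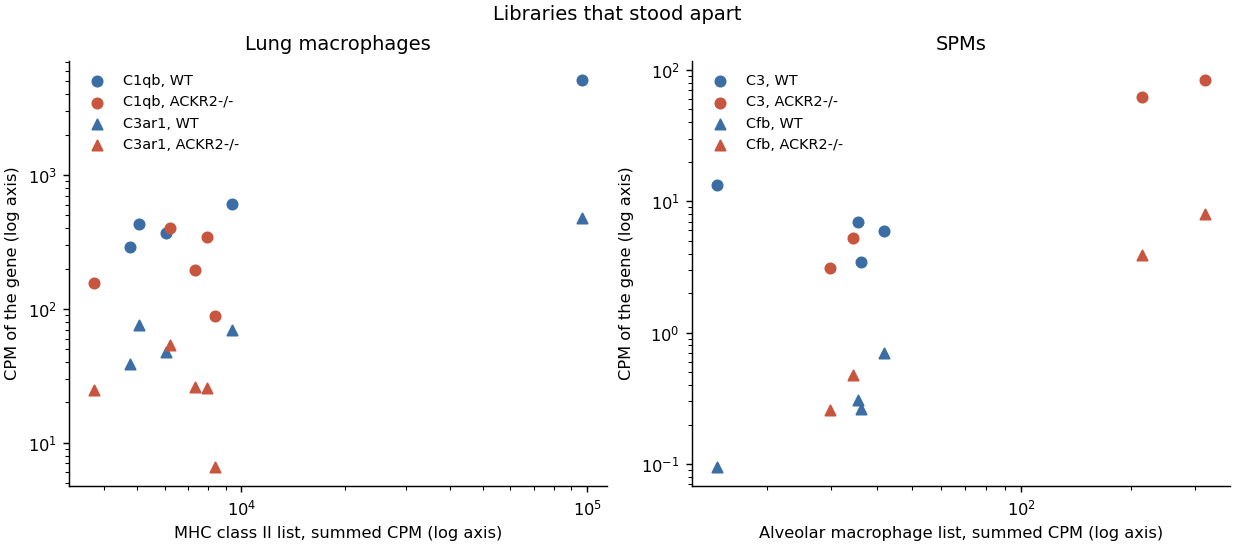
Left, C1qb (circles) and C3ar1 (triangles) in each lung library against the summed CPM of 5 MHC class II genes; right, C3 (circles) and Cfb (triangles) in each SPM library against the summed CPM of 6 alveolar macrophage markers, all axes logarithmic, WT blue and ACKR2-/- red. WT lung replicate 3 lies alone at 96742 CPM with 5076 CPM of C1qb, and ACKR2-/- SPM replicates 1 and 4 at 214 and 319.6 CPM with 61.6 and 83.1 CPM of C3.

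C3 and C4b overlapped between the genotypes. C3 read 118, 111, 59.2, 120.0 and 55.7 CPM in WT and 120.2, 111, 109, 73.6 and 74.3 CPM in ACKR2-/- (log2 fold change 0.07, interval of 2 SE -0.45 to 0.60). C4b read 31.1, 31.1, 14.5, 16.1 and 7.91 CPM in WT and 31.7, 28.9, 30.1, 2.21 and 14.1 CPM in ACKR2-/- (0.09, interval of 2 SE -1.08 to 1.26). Without WT replicate 3 and the library labelled WT replicate 5 the values were -0.21 for C3 and -0.26 for C4b. The lowest C4b libraries, ACKR2-/- replicate 4 and the library labelled WT replicate 5, were also the lowest in 6 fibroblast markers (56.2 and 82.4 CPM against 201 to 885) and in 7 epithelial markers (253 and 418 CPM against 6134 to 18965). C3 was lowest in WT replicate 3, the library labelled WT replicate 5 and ACKR2-/- replicates 4 and 5. These libraries were also the lowest in the fibroblast markers (56.2 to 398 CPM against 492 to 885). WT replicate 3, at 9218 CPM, was not among the lowest in the epithelial markers. The part of such cells in C3 and C4b was not tested. Cfp read 83.8 to 143 CPM in 4 WT libraries, 408 CPM in WT replicate 3 and 87.8 to 118 CPM in ACKR2-/- (log2 fold change -0.85, SE 0.38). Without WT replicate 3 it was -0.26, and -0.13 without the library labelled WT replicate 5 as well. C5ar1, at 227 to 503 CPM in WT and 189 to 371 CPM in ACKR2-/-, gave a log2 fold change of -0.43 (interval of 2 SE -0.89 to 0.04), and -0.24 without WT replicate 3, its highest library. Cfb had 24 reads over the WT and 29 over the ACKR2-/- libraries (exact two-sided permutation p = 1.00, n = 5 against 5, smallest possible p 0.00794).

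**Figure D4:**
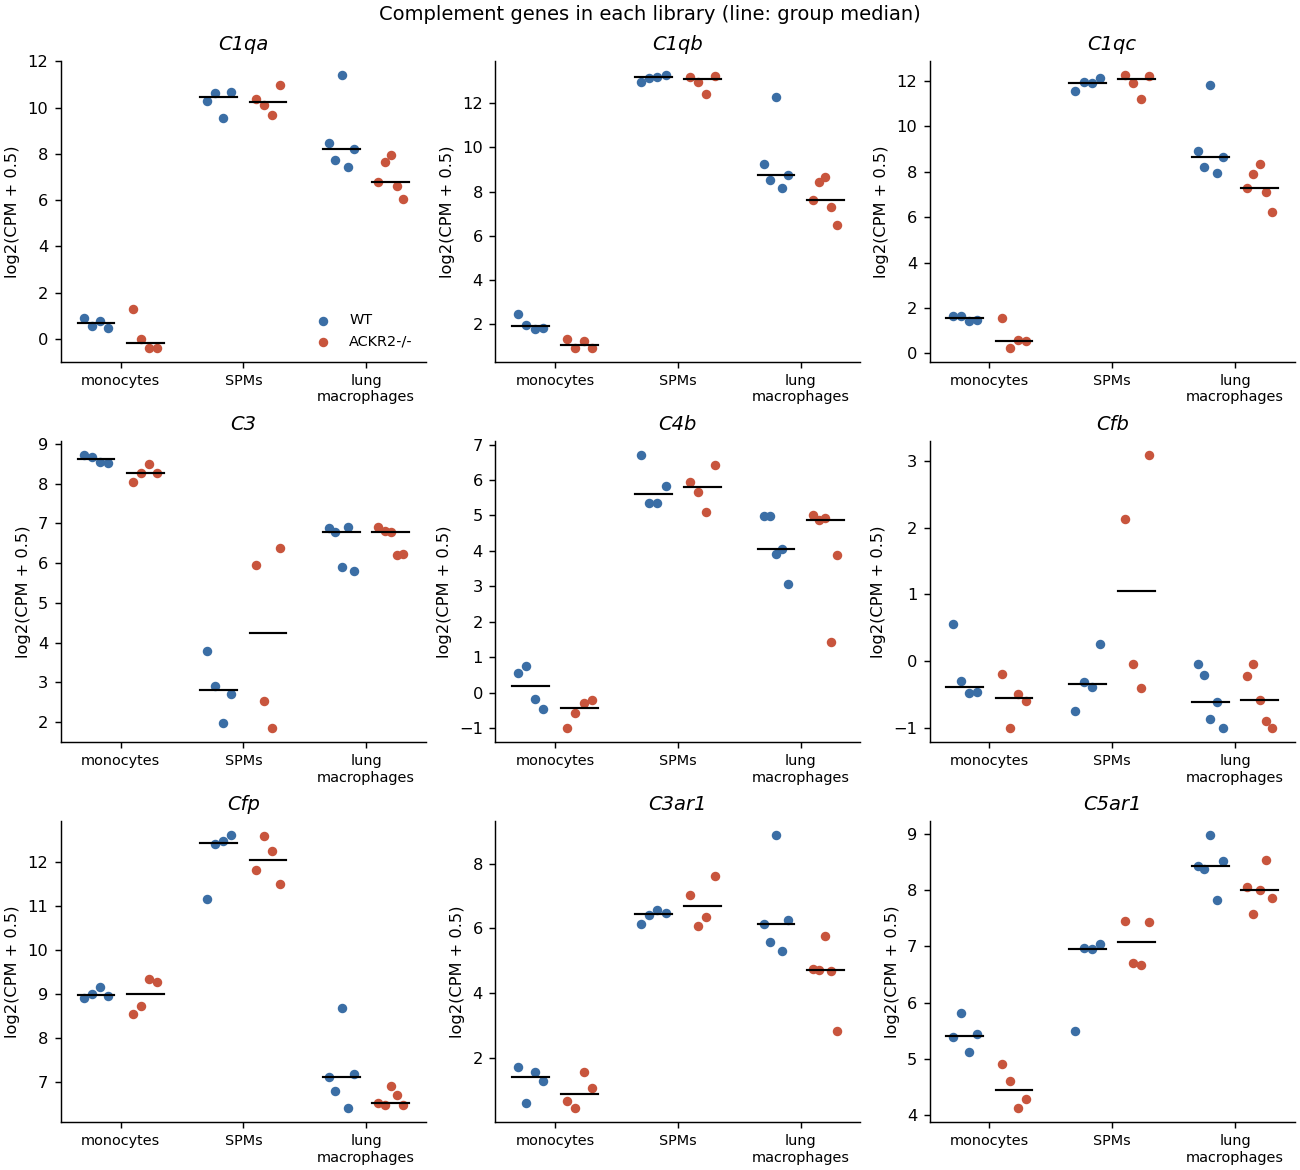
Values of the 9 complement genes in each of the 26 libraries, as log2(CPM + 0.5) scaled within each cell type, with WT in blue, ACKR2-/- in red and a line at each group median. In monocytes the genotypes do not overlap for C5ar1, C1qb and C3, of which only C5ar1 was called. The share of all genes without overlap was not counted. C3 and Cfb split the ACKR2-/- SPM libraries into 2 high and 2 low, and 1 WT lung library lies above all others in C1qa, C1qb, C1qc, Cfp, C3ar1 and C5ar1.

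**Figure D5:**
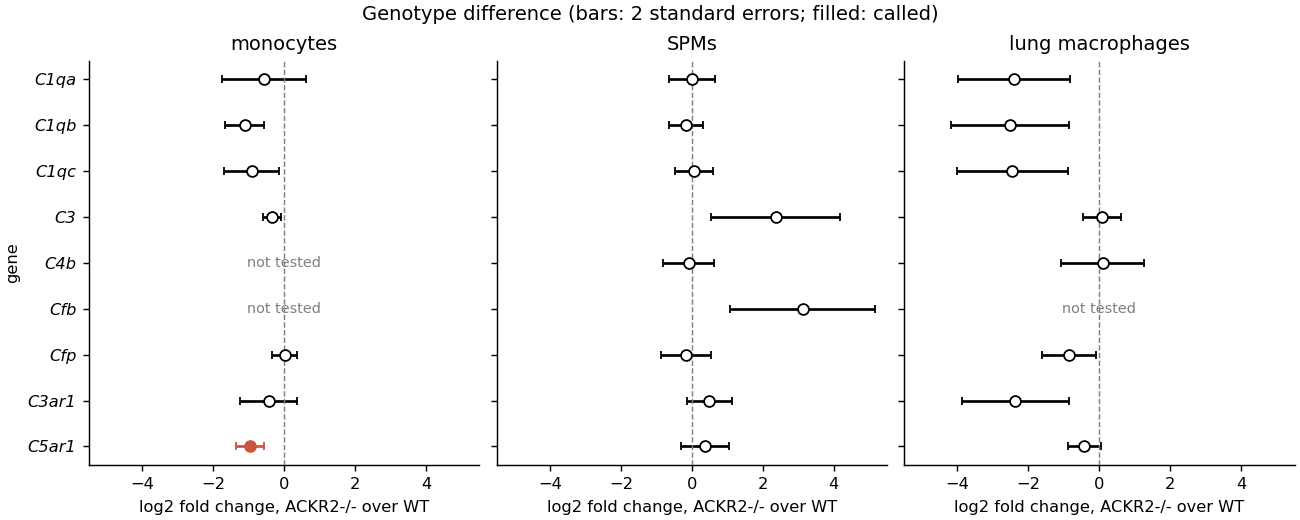
Log2 fold change of ACKR2-/- over WT for each complement gene in monocytes, SPMs and lung macrophages, with bars of 2 SE and a filled point for a called gene. Only C5ar1 in monocytes (-0.96) is called among the 24 values fitted, and the bars are widest for C3 and Cfb in SPMs and for the C1q genes and C3ar1 in lung macrophages.

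Whether the genotype effect differed between cell types was tested by the interaction terms of the fit of all 26 samples. Of the 9 genes, 0 were called in each of the 3 interactions, where 0.253% of the 17792 genes were called for SPMs against monocytes, 0.152% for lung macrophages against monocytes and 0.0393% for lung macrophages against SPMs (1328, 1080 and 1095 at an unadjusted p under 0.05; DESeq2 called 0 of the 9 as well). The C5ar1 effect in monocytes was therefore not shown to differ from that in SPMs (difference 1.41, SE 0.44, adjusted p = 0.312, edgeR) or in lung macrophages (0.58, SE 0.42, adjusted p = 0.924, edgeR). The difference from SPMs ran from 1.00 to 1.56 over all alternatives run. In SPMs alone the C5ar1 effect was 0.38, and -0.041 without ACKR2-/- SPM replicates 1 and 4. For C3, SPMs against monocytes gave 2.81 (SE 0.84, adjusted p = 0.269, edgeR), which was called without ACKR2-/- SPM replicate 3 (3.20, adjusted p = 0.0357, edgeR) and was -0.37 without ACKR2-/- SPM replicates 1 and 4. C3ar1 had the smallest p of the members for lung macrophages against SPMs (-2.88, SE 0.81, adjusted p = 0.485, edgeR), and gave -1.65 without WT lung replicate 3 (adjusted p = 0.647, edgeR).

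A list of 43 other complement genes gave the surroundings of these members. In the genotype comparisons 1 of 20 was called in monocytes, 0 of 18 in SPMs and 0 of 30 in lung macrophages, and 0 of 32 in each interaction. It was Cd93, a membrane protein once described as a C1q receptor, which averaged 27.5 ± 2.24 CPM (SD, n = 4) in the WT and 41.1 ± 4.42 CPM in the ACKR2-/- monocyte libraries (log2 fold change 0.58, SE 0.12, adjusted p = 0.0405, edgeR). The genotypes did not overlap, but the call was lost when any library other than ACKR2-/- replicate 3 was left out (adjusted p 0.0550 to 0.140, edgeR), with the replicate number in the fit (0.0575) and in the joint fit (0.986).

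Between WT cell types, 14 of 32 listed genes were called for SPMs against monocytes (10 higher, 4 lower), 27 for lung macrophages against monocytes (23 higher, 4 lower) and 23 for lung macrophages against SPMs (18 higher, 5 lower). These are 43.8%, 84.4% and 71.9% of the listed genes, beside 41.9%, 63.8% and 62.3% of all genes tested, with median log2 differences of 0.82, 2.89 and 2.14 beside 0.00, 0.34 and 0.41. The ficolins, lectins that start the lectin pathway, split between monocyte and SPM libraries: Fcnb stood at 1181 ± 472 RPKM in WT monocytes and was listed at 0 in all WT SPM libraries, whereas Fcna stood at 572 ± 194 RPKM in WT SPMs, 7.63 ± 4.92 in lung macrophages and 1.06 ± 0.188 in monocytes. The neutrophil genes summed to 30692 to 65428 CPM in WT monocytes and 5.13 to 83.6 CPM in WT SPMs. The part of such cells in Fcnb was not tested. C1rl followed among the starters in monocytes (13.6 RPKM) and SPMs (5.41), with Colec12 next in SPMs (0.818) and leading in lung macrophages (10.3), beside C1s1 (10.3), one of the proteases that act with C1q. Terminal pathway genes were low: C8g led in monocytes (1.47 RPKM) and in SPMs (0.849, with C6 and Hc averaging at most 0.00483), and C7 (8.08), C8g (1.27) and Hc (1.26), the gene of C5, led in lung macrophages. Cfd averaged at most 0.426 RPKM in any WT group. The WT lung libraries also carried 82.4 to 885 CPM of fibroblast and 418 to 16927 CPM of epithelial markers. The part of such cells in the lung values and calls of the listed genes was not tested.

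Among regulators, C1qbp, Cr1l and Cd93 led in monocytes (21.8, 9.42 and 3.22 RPKM), C1qbp and Cr1l in SPMs (31.1 and 16.7) and Serping1, Clu and Cr1l in lung macrophages (94.4, 18.8 and 13.4). Serping1 encodes the C1 inhibitor and ranged from 32.4 to 194 RPKM over the WT lung libraries, which also carried 82.4 to 885 CPM of fibroblast markers, and the part of such cells was not tested. Among other receptors, Calr and Itgb2 led in WT monocytes (140 and 128 RPKM), SPMs (150 and 171) and lung macrophages (134 and 276). Itgam came next in monocytes (9.96 RPKM) and Itgax in lung macrophages (17.9), both of which pair with Itgb2 to form complement receptors. Vsig4, a macrophage receptor for C3b, came next in SPMs (55.4 ± 37.2 RPKM).

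The genes whose pattern was most like each member were taken from 17792 genes, by Pearson's r of log2 CPM over 26 samples after the mean of each of the 6 groups was subtracted. These r values share libraries and rest on the samples that stood apart, so they are a description. C1qb and C1qc were nearest to each other (r = 0.97). C1qa was nearest to C1qc (0.95), then to C1qb (0.92) and P2ry13 (0.90). P2ry13 came before C1qa both for C1qc (0.95 each after rounding) and for C1qb (0.93), whose 3 nearest genes ended with Slco2b1 (0.92). C3ar1 was nearest to P2ry13 (0.90), Ms4a7 (0.89) and C1qb (0.88). C3 was nearest to Tnfaip2 (0.97), F830016B08Rik (0.92) and Dram1 (0.91), and Cfb to Acod1 (0.90), Gm4841 and Iigp1 (0.89 each). Acod1 read 45.5 and 75.1 CPM in ACKR2-/- SPM replicates 1 and 4 and 0.528 to 0.998 CPM in the other 6 SPM libraries. C4b was nearest to Tgfb2 (0.90), Gm26588 and Epn2 (0.89 each), Cfp to Hexa (0.91), Fcgr2b and Pepd (0.90 each), and C5ar1 to Rdh14 and Clec12a (0.86 each) and Rfc5 (0.85).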

How the data were processed

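RNA of sorted cells was amplified by the SMARTer method, libraries were made from poly-A RNA and read as paired ends of 150 bp. The authors deposited unnormalized read counts for each gene, with a table for every cell type (54375, 54863 and 57186 genes). The submitters' processing notes name HISAT2 2.0.5, featureCounts 1.5.0-p3, DESeq2 and mm10, but which tool made which table is not given, and the lung table ends in 5 summary lines of another counter (56.3% of its counts), which were left out. A total of 44 replicate pairs were compared and 0 were identical. Whether samples are separate animals beyond the pools is not stated for lung, so p-values measure the spread between these samples.

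Genes were filtered by filterByExpr (minimum count 10, minimum total 15), scaled by TMM and compared within each cell type by the quasi-likelihood test of edgeR 4.0.16 in R 4.3.3. All 26 samples entered 1 fit for interactions and for WT cell types. Adjusted p-values are Benjamini-Hochberg over all genes tested, and calls needed one under 0.05 with a log2 fold change beyond 0.5 either way, as in the study. SE is the log2 fold change over the root of F. CPM use TMM-scaled libraries, and RPKM the gene lengths of the tables. All 9 members are described in every comparison. Other complement genes are named where called between genotypes or among the 3 highest of their role in a WT cell type, and patterns by the 3 nearest genes (pseudocount 0.5 CPM). Some listed genes that this rule names are not reported here. The members and lists were chosen with earlier results of these data known. Other settings were the joint fit, the replicate number as a block, a robust fit, calls by adjusted p without a fold limit, RLE factors, DESeq2 1.42.0, a 1 CPM filter or none, each sample left out, and WT lung replicates 3 and 5 left out together. Leaving out ACKR2-/- SPM replicates 1 and 4 together was added after seeing the data. The steps were checked on simulated data. Without molecular identifiers, PCR copies count as reads, so read numbers understate the error of low genes.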

Additional observations from a re-analysis of the deposited data

Results flagged for a closer look

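In groups of 4 or 5 samples, the gap of the highest or lowest library to its nearest neighbour was set against Dixon's 95% critical value, for the 9 genes in each of the 6 groups (54 groups of values). In independent, normally distributed values chance gives such a gap in about 1 in 20 groups. The 9 genes share libraries, so that rate need not hold here. A total of 8 such gaps were found. Of these, 5 fell in WT lung replicate 3, a library far above the other 4 of its group: C1qa at 2750.0 CPM, C1qb at 5080.0 CPM, C1qc at 3680.0 CPM, Cfp at 408 CPM and C3ar1 at 474 CPM (rounded to 3 digits). The same library carried the MHC class II genes described above. The part of other cells in these values was not tested.

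In monocytes, C1qa in ACKR2-/- replicate 1 was apart at 1.99 CPM (37 reads), above the other 3 of its group, and Cfb in WT replicate 1 at 0.977 CPM (15 reads). In SPMs, C5ar1 in WT replicate 1 was apart at 44.9 CPM, below the other 3, in the library that was highest in the sum of monocyte markers and lowest in Ly6c2.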

How the results depend on the processing

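The counts of called members were computed under 262 alternatives over 9 comparisons, and 253 of them stayed within 1.5 times the value given above. The exceptions were the monocyte genotype count of 1, which was 2 with DESeq2 (C5ar1 and C1qb), 0 in the joint fit and 0 to 2 when each sample was left out, and the interaction of SPMs against monocytes, which was 0 to 1 when each sample was left out. Over all genes, DESeq2 called 494 genes between monocyte genotypes where edgeR called 168, 33 against 6 in SPMs and 15 against 0 in lung macrophages, 130 against 45, 109 against 27 and 22 against 7 in the interactions; without a filter edgeR called 346 in monocytes, 52 in SPMs and 42 and 63 in the interactions of lung macrophages and SPMs with monocytes. For the 9 genes and Cd93, 2168 of 2236 values kept direction and call. In WT cell types 0 of 27 member values changed sign.

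Changes of sign fell on 16 differences, all of them not called. Leaving out each sample in turn gave log2 ranges of -0.27 to 0.18 for C1qa, -0.061 to 0.25 for C1qc, -0.33 to 0.31 for C4b, 1.65 to 2.79 for C3, 0.13 to 0.69 for C3ar1, 0.13 to 0.50 for C5ar1 and -0.41 to -0.01 for Cfp in SPMs, -0.11 to 0.13 for Cfp in monocytes, and -0.034 to 0.20 for C3 and -0.10 to 0.39 for C4b in lung macrophages. For interactions the ranges were -1.61 to 0.27 for C1qb and -1.74 to -0.02 for C1qc (lung macrophages against monocytes), -2.75 to -1.62 for C3 and -0.25 to 0.40 for C4b (lung macrophages against SPMs), and 2.08 to 3.20 for C3 and -0.37 to 0.059 for Cfp (SPMs against monocytes).

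Without ACKR2-/- SPM replicates 1 and 4 together, an alternative chosen after seeing the data, the SPM values were -0.44 for C1qa, -0.30 for C1qc, -0.83 for C3, -0.19 for C3ar1, -0.041 for C5ar1 and 0.17 for Cfp, and the interactions 0.82 for C3 (lung macrophages against SPMs), -0.37 for C3 and 0.23 for Cfp (SPMs against monocytes). Without WT lung replicates 3 and 5 together, lung values were -0.21 for C3 and -0.26 for C4b, and interactions 0.29 for C1qb and 0.054 for C1qc against monocytes and -0.31 for C4b against SPMs. The joint fit gave 0.0061 for C4b in SPMs and -0.013 for Cfp in monocytes. With the replicate number as a block, C4b in lung macrophages was -0.10, Cfp in monocytes -0.029 and C3 in SPMs 1.39 in place of 2.36. The monocyte count of members stayed at 1 and the calls over all genes went from 168 to 186. Same-numbered samples of the 2 genotypes correlated at -0.10 to 0.43 in monocytes, -0.18 to -0.04 in SPMs and -0.10 to 0.76 in lung macrophages. The same-numbered ACKR2-/- sample was nearest for WT monocyte replicate 2 (0.43 against at most 0.29 for other numbers) and WT lung replicate 1 (0.76 against 0.72). For every other WT sample a different number was nearer, so the numbers were not shown to pair the samples. The cause of these changes was not tested. Cfb in all cell types and C4b and the C1q genes in monocytes rest on few reads per library, which limits their precision.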
